A study of Rattus norvegicus with 88 samples.

Results

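The miRNAs miR-10a-5p and miR-10b were examined in rat liver from 2 to 104 weeks of age. They are 2 of the 314 miRNAs that were detected on at least 1 array. Both were chosen by name, as the pair of miR-10 genes that lie in Hox gene clusters. The array design calls them rno-miR-10a-5p and rno-miR-10b, and a later version of the design file calls the second one rno-miR-10b-5p, so arrays were joined by probe name. Livers came from untreated F344 rats, 45 females and 43 males. A piece of frozen tissue from each liver was ground to powder, and its RNA was put on its own one-colour array. Sampling began at 2 weeks of age, went on at 5, 6 and 8 weeks, then at 15 and 21 weeks, and closed at 52, 78 and 104 weeks. Each group held 5 livers, apart from the 5-week and 104-week males with 4. Livers of 2 weeks are called young here, those of 5 to 21 weeks adult and those of 52 to 104 weeks old. The sex of each animal was taken from its sample title, because the housing text given with every sample names females only. Whole liver RNA comes from hepatocytes and all other cells of the organ, and fewer cells of a type and less RNA per cell cannot be told apart.

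A miRNA is a short RNA that guides Argonaute proteins to messenger RNAs, mainly through its seed, bases 2 to 8 counted from the 5′ end. The Hox clusters encode the transcription factors that pattern the body axis, and miR-10 genes lie within them next to the Hox4 genes. The family is known as an inhibitor of Hox messages and, in mammals, as a set of miRNAs with wide tissue expression. In the RefSeq annotation of rat assembly GRCr8 the Mir10a gene lies between Hoxb5 and Hoxb4 on chromosome 10, and Mir10b lies on chromosome 3 inside the span annotated as Hoxd4, between Hoxd8 and Hoxd3. The mature sequences of both members are shown first because their similarity decides what the 2 measurements can separate. Those of miR-99b and miR-100 follow as the nearest relatives outside the Hox clusters, and the seed of each is in capitals. The sequences are those of RefSeq for GRCr8, written 5′ to 3′.
rno-miR-10a-5p: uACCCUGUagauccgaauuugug
rno-miR-10b-5p: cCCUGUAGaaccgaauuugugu
rno-miR-99b-5p: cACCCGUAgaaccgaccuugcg
rno-miR-100-5p: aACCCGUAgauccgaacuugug
The miR-10a-5p sequence (23 bases, chr10:81779730-81779752, plus strand) and the miR-10b-5p sequence (22 bases, chr3:80035886-80035907, plus strand) were each annotated as part of a hairpin. Aligned without gaps, miR-10b-5p started 2 bases after miR-10a-5p, and 20 of the 21 aligned bases were identical. The remaining difference was U12A, with positions counted from the 5′ end of miR-10a-5p. Because of the later annotated start, the seed columns of the 2 members were not the same, and no other mature miRNA in the RefSeq table used here shared either seed. The seed of miR-99b-5p was shared with miR-100-5p. The 2 precursors are shown next because they place both mature strands, in capitals, on the same arm.
Mir10a: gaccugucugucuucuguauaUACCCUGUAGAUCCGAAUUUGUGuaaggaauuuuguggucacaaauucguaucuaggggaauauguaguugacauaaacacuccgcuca
Mir10b: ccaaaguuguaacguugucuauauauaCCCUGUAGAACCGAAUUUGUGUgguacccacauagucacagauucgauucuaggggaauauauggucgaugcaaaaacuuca
In the Mir10b precursor, the 8 bases that begin 2 bases before the annotated strand were identical to the first 8 bases of miR-10a-5p. The array carried 2 probes and 20 spots for each member. The probe letters were not used here, so the share of signal that each probe takes from the other member was not tested.

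Values below are normalized intensities, meaning a miRNA's signal relative to its array's 75th percentile over expressed miRNAs, or their log2. Levels of different miRNAs cannot be ranked on such arrays, because each probe has its own response. miR-10a-5p was detected on 88 of 88 arrays, and all of its 20 spots were well above background on each of the 88. Its signal was between 21.7 and 242 times the lowest signal detected on the same array. miR-10b was detected on 87 of 88 arrays and was much closer to the limit, between 1.96 and 13.6 times the lowest detected signal of its array, with 0 to 11 of its 20 spots well above background on an array and a median of 10. Of the 87 detected values, 19 had fewer than 10 such spots, 7 of them in adult males and 6 in old males, and 1 of an old male had none. The first of its 2 probes had a median processed signal of 2.49 and the second of 22.5, so that nearly all of the miR-10b signal came from 1 probe. The 2 probes of miR-10a-5p correlated at r = 0.94 across the 88 arrays and those of miR-10b at r = 0.20, as a description. The array without miR-10b was that of 2-week male replicate 3. It had the lowest 75th percentile of the series (28.1) and none of its miR-10b spots was well above background. Its value was set to the normalized floor of 0.0120, and the main results that rest on it are also given without it. Among arrays of the same group, the pooled SD of the log2 level after 2 weeks of age was 0.22 for miR-10a-5p and 0.33 for miR-10b.

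miR-10a-5p was lowest at 2 weeks of age and higher at later ages, in both sexes. At 2 weeks the 5 females had normalized intensities of 2.80, 2.18, 2.39, 2.27 and 2.38. The 5 males of that age had 1.77, 1.44, 1.62, 1.62 and 1.52. Every 2-week male was below every 2-week female. The 25 adult females ranged from 2.49 to 6.07 with a median of 4.50, and the 15 old females from 3.60 to 6.03 with a median of 5.28. The 24 adult males ranged from 2.56 to 5.88 with a median of 4.25, and the 14 old males from 3.64 to 5.85 with a median of 4.72. The 2-week males lay below all later males without overlap, while the highest 2-week female lay within the range of the adult females.

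**Figure D1:**
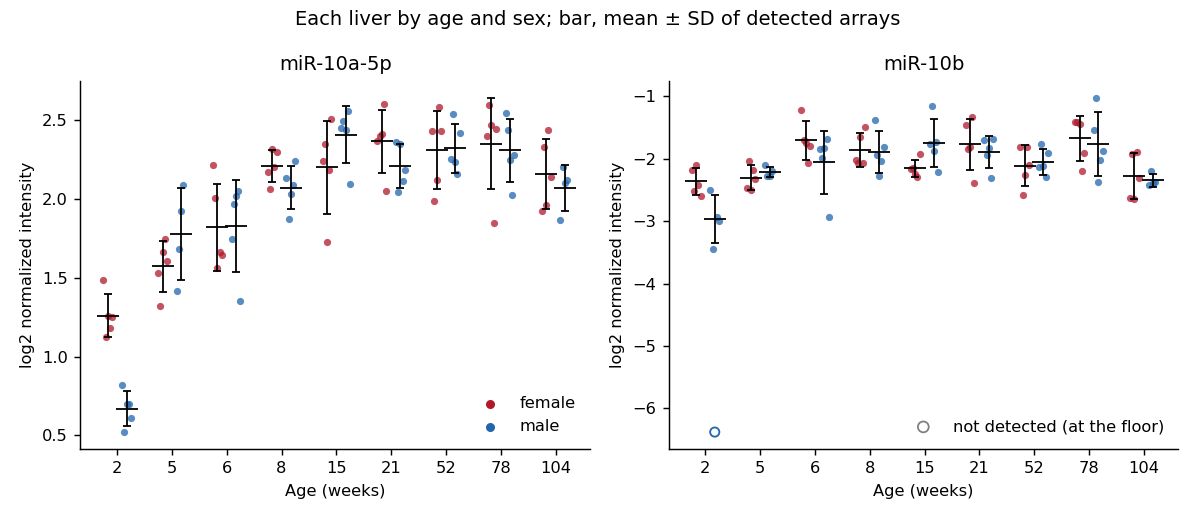
Log2 normalized intensity of miR-10a-5p (left) and miR-10b (right) against age in weeks, with 1 point for each liver, females red and males blue; bars are the mean ± SD of arrays with a detected signal. The mean of the 2-week males was the lowest for both, and the open circle is the 2-week male without detected miR-10b, drawn at the floor.

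By age, the female means of miR-10a-5p were 2.40 ± 0.238 at 2 weeks, 2.99 ± 0.326 at 5, 3.58 ± 0.719 at 6, 4.64 ± 0.326 at 8 and 4.67 ± 0.879 at 15 weeks (SD, n = 5 each). They were 5.19 ± 0.687 at 21, 5.01 ± 0.836 at 52, 5.18 ± 0.927 at 78 and 4.51 ± 0.704 at 104 weeks. By log2 means the female order was 2, 5 and 6 weeks, then 104, 15, 8, 52, 78 and 21 weeks, and no pair of neighbours in that order differed by limma's test (adjusted p between 0.0778 and 1). The male means were 1.59 ± 0.124 at 2 weeks, 3.48 ± 0.692 at 5 (n = 4), 3.61 ± 0.659 at 6, 4.22 ± 0.391 at 8 and 5.33 ± 0.622 at 15 weeks. They were 4.65 ± 0.451 at 21, 5.02 ± 0.545 at 52, 4.99 ± 0.677 at 78 and 4.22 ± 0.408 at 104 weeks (n = 4). In males the step from 2 to 5 weeks, 1.11 on the log2 scale, was the 1 difference between neighbours in the order that passed limma's test (adjusted p = 2.03e-09).

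The age difference of miR-10a-5p passed the F test over the 9 ages in limma in females (adjusted p = 7.52e-09) and in males (adjusted p = 2.93e-14). Among the 314 expressed miRNAs, 57.3% passed this test and had 1 or more age pairs called in females, and 54.1% did in males. A pair was called at an adjusted p under 0.05 and a difference of at least 1.5-fold. In females 6 of the 8 later ages were called higher than 2 weeks, all from 8 to 104 weeks, by 0.90 to 1.11 on the log2 scale. This female count was 0 with quantile normalization, with normexp and quantile normalization, and with the scaling to the 103 miRNAs described below. In males all 8 were called higher, by 1.11 to 1.74. Over all expressed miRNAs, 23% of such comparisons with 2 weeks were called with the older age higher in females and 26.6% in males. The adult minus young difference was 0.77 ± 0.15 (SE, limma adjusted p = 2.62e-05) in females and 1.40 ± 0.13 (limma adjusted p = 4.67e-13) in males, where 22.9% and 29.9% of miRNAs were called higher in adults. The female difference was not called with quantile normalization (0.19, limma adjusted p = 0.136) or with normexp and quantile normalization, where it was 0.25 and under 1.5-fold. Within the scans that held both classes it was between 0.58 and 0.95 in females and between 1.33 and 1.54 in males.

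After 2 weeks of age the differences of miR-10a-5p with age were smaller and depended on the processing. The F test over 5 to 104 weeks passed in females (limma adjusted p = 9.73e-05) and in males (limma adjusted p = 5.23e-04), and 32.8% and 20.1% of expressed miRNAs passed it. In females, 8, 15, 21, 52 and 78 weeks were each called above 5 weeks, by 0.63 to 0.79 on the log2 scale, which made 5 of 28 pairs. In males 15 weeks alone was called above 5 weeks, by 0.63, which made 1 of 28. Both counts were 0 with each of 4 other scalings, namely that to the 103 always-detected miRNAs, the percentile over all miRNAs, quantile normalization, and normexp with quantile normalization. The male count was 2 with the mean processed signal, with the second probe alone and with scan as a block. It was 3 without the arrays of the later design file. The F test over these ages was lost in both sexes with the percentile over all miRNAs (limma adjusted p = 0.777 in females and 0.126 in males) and in males with quantile normalization (limma adjusted p = 0.333). The share of such pairs called over all expressed miRNAs was 5.91% in females and 4% in males. Without 1 array at a time this count ranged from 3 to 8 in females and from 0 to 3 in males, the lowest without 5-week female replicate 2 and without 5-week male replicate 1. The old minus adult difference was 0.24 ± 0.10 in females (SE, limma adjusted p = 0.148) and 0.17 ± 0.09 in males (limma adjusted p = 0.271), and neither was called. Of all expressed miRNAs, 4.46% in females and 5.1% in males were called between these classes.

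The means of miR-10b were also lowest at 2 weeks, and its later values showed little order by age. The 5 females of 2 weeks had 0.221, 0.174, 0.234, 0.186 and 0.165. The 4 males of 2 weeks with a detected signal had 0.177, 0.0920, 0.131 and 0.125. The males of 2 weeks overlapped the females through replicate 1 alone. Adult females ranged from 0.176 to 0.431 with a median of 0.244, and old females from 0.160 to 0.376 with a median of 0.264. Adult males ranged from 0.131 to 0.448 with a median of 0.267, and old males from 0.186 to 0.492 with a median of 0.229. All of the 5 females of 2 weeks had values that later females also reached.

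The female means of miR-10b were 0.196 ± 0.0299 at 2 weeks, 0.204 ± 0.0287 at 5, 0.312 ± 0.0714 at 6, 0.280 ± 0.0545 at 8 and 0.225 ± 0.0230 at 15 weeks (SD, n = 5 each). They were 0.302 ± 0.0802 at 21, 0.236 ± 0.0507 at 52, 0.321 ± 0.0739 at 78 and 0.211 ± 0.0532 at 104 weeks. From lowest to highest on the log2 scale the female ages ran 2, 5, 104, 15, 52, 8, 21, 6 and 78 weeks, and no neighbours in this order differed by limma's test (adjusted p between 0.679 and 1). The male means were 0.131 ± 0.0352 at 2 weeks (n = 4 detected), 0.216 ± 0.0125 at 5 (n = 4), 0.250 ± 0.0695 at 6, 0.275 ± 0.0666 at 8 and 0.306 ± 0.0860 at 15 weeks. They were 0.272 ± 0.0446 at 21, 0.244 ± 0.0358 at 52, 0.310 ± 0.116 at 78 and 0.197 ± 0.0141 at 104 weeks (n = 4). The male order was 2, 104, 5, 6, 52, 21, 8, 78 and 15 weeks, and of its steps only that from 2 to 104 weeks was called (limma adjusted p = 0.00730, or 0.0303 with the undetected value left out).

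The F test over the 9 ages passed for miR-10b in females (limma adjusted p = 0.00264) and in males (limma adjusted p = 0.00184, or 5.57e-04 with the undetected value left out). The female test was lost with the first probe alone (limma adjusted p = 0.330). In females 6, 21 and 78 weeks were called above 2 weeks, by 0.59 to 0.69 on the log2 scale, which made 3 of 8 pairs against 23% over all expressed miRNAs. These female counts were not stable: 0 ages were called above 2 weeks with the scaling to the 103 miRNAs detected on all arrays, with the first probe alone and with normexp and quantile normalization, 6 with the percentile over all miRNAs and 7 with quantile normalization. Normexp adds an offset of 50 to spots of probes with median processed signals of 2.49 and 22.5, which shrinks log2 differences of miR-10b. The first probe, at 2.49, gave little signal. Losing a call of miR-10b under either setting was thus likely beforehand and says little about the livers. At 78 weeks miR-10b was also called above 5 weeks, by 0.63. That last pair was the 1 of 28 later pairs called, against 5.91% over all expressed miRNAs, and the count ranged from 0 to 4 without 1 array at a time. It was 0 without 5-week female replicate 3 and without each of the 78-week females 1, 2 and 3, and it was 3 with the replicate block. The count was also 0 with the percentile over all miRNAs, the first probe alone and normexp with quantile normalization. It was 2 with the second probe alone, and 3 with the scaling to the 103 miRNAs and without the arrays of the later design file. The F test over 5 to 104 weeks passed in females (limma adjusted p = 0.0133) but not in males (limma adjusted p = 1), and the female test was lost under 4 alternatives. These were the percentile over all miRNAs (limma adjusted p = 0.557), the first probe alone (0.350), quantile normalization (0.142) and normexp with quantile normalization (0.127). In males 0 of 28 pairs were called against 4% over all. In males all 8 later ages were called above 2 weeks, against 26.6% of such pairs over all, by 1.30 to 1.90 with the undetected array at the floor and by 0.62 to 1.22 with it left out. That count was 4 with the first probe alone and 0 with the scaling to the 103 miRNAs and with normexp and quantile normalization. The adult minus young difference was 1.70 ± 0.29 in males (SE, limma adjusted p = 2.67e-06) and 0.40 ± 0.18 in females, where it was not called (limma adjusted p = 0.0533). The female difference was called with the percentile over all miRNAs (1.17, limma adjusted p = 0.00205) and with quantile normalization (0.92, limma adjusted p = 5.91e-05). As said above, the percentile over all miRNAs was not a measured signal on every array. With the undetected value left out, an alternative chosen after seeing the data, the male difference was 1.02 and still called. With normexp and quantile normalization the male difference was 0.13 and not called, being under 1.5-fold (limma adjusted p = 4.19e-04). Within scans the adult minus young difference was 2.23, 0.86 and 1.51 in males, the first of these with the undetected array, and 0.59, 0.42 and 0.15 in females. The old minus adult difference was -0.06 ± 0.12 in females and -0.08 ± 0.20 in males (limma adjusted p = 0.885 and 1).

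The size of the rise after 2 weeks depended on the scaling. The arrays of 2-week livers detected more miRNAs than later ones, with medians of 218 in females and 235 in males against 163 to 186 in the adult and old classes. Their 75th percentiles were also higher, with medians of 101 and 133 against 46.9 to 77.6. Over all expressed miRNAs the median adult minus young difference was 0.13 in each sex. Over the 103 miRNAs detected on all arrays it was 0.52 in females and 0.99 in males. miR-10a-5p exceeded the median of these 103 by 0.26 in females, where 31 of the 103 rose more, and by 0.42 in males, where 19 rose more. miR-10b stood 0.11 below that median in females and 0.71 above it in males, but the male value rests on the 1 undetected array at the floor. It was 0.22 with the lowest raw signal put in for undetected values, and with that array left out the male difference of miR-10b was 1.02 against the median of 0.99. When each array was scaled to the 75th percentile of those 103 miRNAs, the adult minus young difference of miR-10a-5p was 0.12 in females and 0.29 in males, and that of miR-10b was -0.25 and 0.64, and none of the 4 was called. The pairs of ages called for miR-10a-5p then numbered 0 in each sex, although its F test over 9 ages still passed (limma adjusted p = 0.0125 in females and 3.29e-04 in males). For miR-10b that F test passed in females (limma adjusted p = 8.19e-04) and not in males (limma adjusted p = 0.788). With the undetected value left out as well, the male difference of miR-10b was -0.12 (limma adjusted p = 0.671), so that its direction was the opposite of that with the first scaling. The part of the higher detection at 2 weeks in the rise was not tested further.

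**Figure D2:**
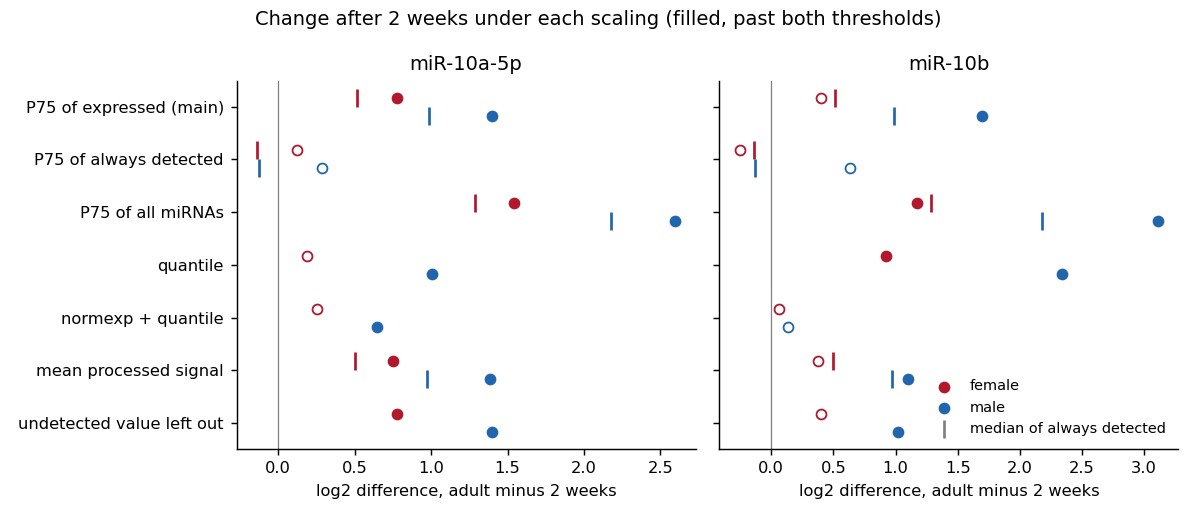
Adult minus young difference (log2) of miR-10a-5p (left) and miR-10b (right) under 7 treatments of the signal, females red and males blue; filled points passed limma's adjusted p under 0.05 and 1.5-fold, and vertical ticks are the median of the 103 miRNAs detected on all arrays. The miR-10a-5p points lie to the right of their tick under each treatment with a tick, while the points themselves move between 0.12 and 2.59. The 2.59 is that of males with the percentile over all miRNAs, which was not a measured signal on arrays with few detected miRNAs.

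A sex difference was called at 2 weeks and at none of the 8 later ages, whereas with the percentile over all miRNAs 1 later age was called for each member. As said above, that percentile was not a measured signal on arrays with few detected miRNAs. At 2 weeks miR-10a-5p was lower in males by a log2 difference of -0.59 ± 0.13 (SE, limma adjusted p = 2.25e-04), a fold of 1.51 that lies just past the required 1.5. The 103 miRNAs detected on all arrays were also lower in males at this age, by a median of -0.36, and miR-10a-5p lay -0.23 from that median, with 18 of the 103 lower still. The 3 hepatocyte markers had a median of -0.50, and miR-122 was called (-0.63, limma adjusted p = 6.60e-06). Of the 4 leukocyte markers, with a median of -0.17, 1 was also called lower in males. No marker of the other cell types was called at this age. miR-10b was lower in males by -1.29 ± 0.31 (SE, limma adjusted p = 4.64e-04), and by -0.60 with the undetected value left out, where it was still called. The call of miR-10b was lost with the first probe alone (-0.93), with normexp and quantile normalization (-0.079, limma adjusted p = 0.159) and with the methods' t-test (adjusted p = 0.221). The weak first probe and the normexp offset of 50 made a loss under those settings likely beforehand. At this age 7.64% of expressed miRNAs were called with the female higher. In scan 4 the male minus female difference at 2 weeks, of 1 male and 2 females, was -0.58 for miR-10a-5p and -0.69 for miR-10b, and in scan 5, again of 1 male and 2 females, it was -0.81 and -1.14. From 5 to 104 weeks the differences lay between -0.16 and 0.21 for miR-10a-5p and between -0.35 and 0.41 for miR-10b. None of these 16 was called by limma or had an unadjusted p under 0.05, against 4.5% of such comparisons called over all expressed miRNAs. For miR-10a-5p the 2-week difference was not called with the scaling to the 103 miRNAs detected on all arrays (-0.20, limma adjusted p = 0.168) or with the percentile over all miRNAs (-0.56, limma adjusted p = 0.685). It fell under 1.5-fold, with an adjusted p still under 0.05, with the first probe alone (-0.50), with normexp and quantile normalization (-0.36), with slide as a random block (-0.57) and without the later-design arrays (-0.50). That of miR-10b was called with this scaling while the undetected array stood at the floor (-0.94) and not with it left out (-0.19, limma adjusted p = 0.718). The miR-10a-5p difference also fell under 1.5-fold without 2-week female replicate 1 (-0.53) and without 2-week male replicate 2 (-0.55) or 5 (-0.57).

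**Figure D3:**
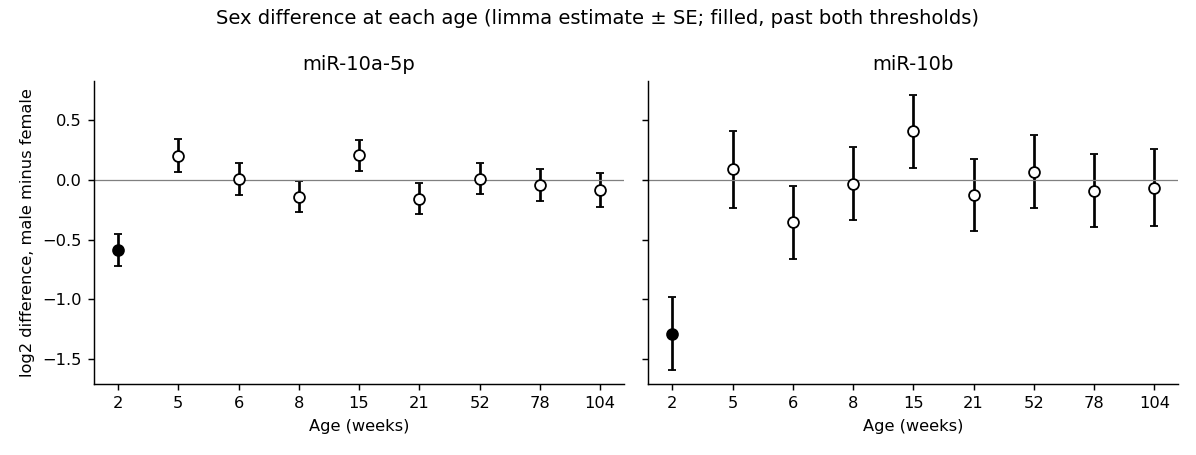
Male minus female difference (log2, limma estimate ± SE) of miR-10a-5p (left) and miR-10b (right) at each age; filled points passed an adjusted p under 0.05 and 1.5-fold. The points at 2 weeks, -0.59 and -1.29, are the filled ones, and the later points lie between -0.35 and 0.41.

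The change from young to adult liver was larger in males for both members with the first scaling and the undetected value at the floor. The male minus female difference of this change was 0.63 ± 0.20 for miR-10a-5p (SE, limma adjusted p = 0.0128) and 1.29 ± 0.34 for miR-10b (limma adjusted p = 0.00218). Of expressed miRNAs, 27.1% passed this test in either direction. For miR-10b it was 0.61 and did not pass with the undetected value left out (limma adjusted p = 0.0819), and 0.13 with the scaling to the 103 miRNAs as well. For miR-10a-5p it was 0.16 and did not pass with the scaling to the 103 miRNAs (limma adjusted p = 0.373). The change from adult to old did not differ detectably between the sexes, with -0.06 ± 0.13 for miR-10a-5p and -0.02 ± 0.23 for miR-10b (limma adjusted p = 1 for each), and 1.59% of expressed miRNAs passed.

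The log2 difference between the 2 members on the same array is the same for every scaling that divides an array by 1 number, and it shows unequal change, not which member was more abundant. Quantile normalization, which is not such a scaling, gave an adult minus young difference in females of 0.19 for miR-10a-5p and 0.92 for miR-10b, so that there the order of the 2 was the opposite of that of 0.77 and 0.40. It was measured on the 87 arrays with both detected. At 2 weeks it was between 3.35 and 3.84 in the 5 females and between 3.32 and 3.96 in 4 males. From 5 to 104 weeks the 40 females lay between 3.32 and 4.61 and the 38 males between 3.46 and 4.62. The 2-week mean was 3.62 ± 0.176 in females and 3.63 ± 0.265 in males. In females it was not the lowest, since the mean at 6 weeks was 3.53. Against all later ages pooled, the 2-week mean was lower by a log2 difference of -0.48 in females and -0.49 in males (two-sided permutation test with 100000 resamples, adjusted p = 0.0222 for each, over 13 comparisons). The male value leaves out the 2-week liver without detected miR-10b, and the fitted rise of miR-10b in males, with that liver at the floor, was larger than that of miR-10a-5p. Neither passed without 1 array, 2-week female replicate 4 (-0.42, permutation adjusted p = 0.0674) or 2-week male replicate 1 (-0.38, permutation adjusted p = 0.0844). It was lower at 2 weeks in each scan that held both, by differences between -0.68 and -0.15 in females and between -0.55 and -0.19 in males. For the omitted array, the lowest detected signal in place of miR-10b would give 4.44, above the other 2-week males. With that value, chosen after seeing the data, the male difference was -0.32 and did not pass (permutation adjusted p = 0.0937). With mean processed signals, which gave this array 3.80, the male difference kept its direction and passed the permutation test.

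**Figure D4:**
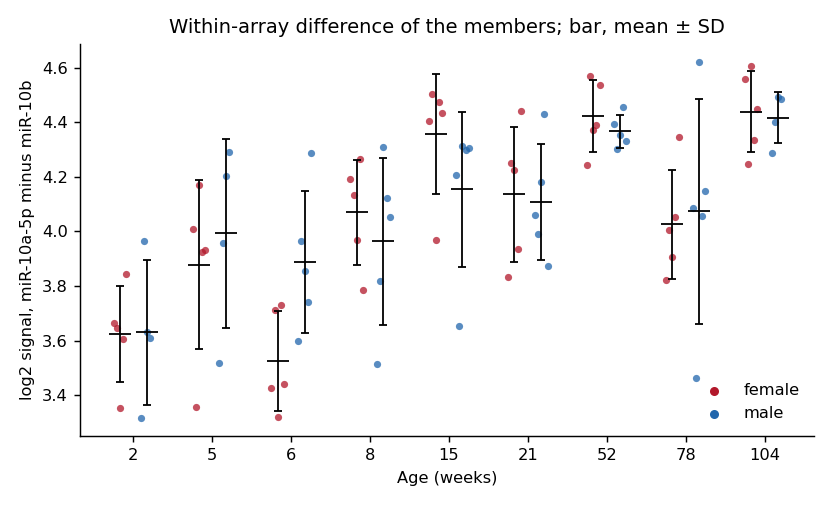
Log2 signal of miR-10a-5p minus that of miR-10b on the same array against age in weeks, with 1 point for each of the 87 livers where both were detected, females red and males blue; bars are the mean ± SD. The 2-week points lie between 3.32 and 3.96, and the group means at 52 and 104 weeks lie between 4.37 and 4.44.

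Pooled over their ages, old livers also had a larger difference between the 2 members than adult livers. The test below shuffled single livers across the ages of both classes, so its p does not measure the spread between ages. The old minus adult difference of this quantity was 0.30 in females and 0.25 in males (two-sided permutation test with 100000 resamples, adjusted p = 0.0288 and 0.0347). The male difference did not pass (0.25, permutation adjusted p = 0.0533) without the 1 old male with no miR-10b spot well above background, an alternative chosen after seeing the data. The highest group means were 4.44 ± 0.150 and 4.42 ± 0.0952 at 104 weeks in females and males and 4.42 ± 0.132 and 4.37 ± 0.0597 at 52 weeks. The means at 78 weeks were lower, at 4.03 ± 0.200 and 4.07 ± 0.412. Among adult females the means were 3.88 at 5, 3.53 at 6, 4.07 at 8, 4.36 at 15 and 4.14 at 21 weeks, and among adult males 3.99, 3.89, 3.96, 4.15 and 4.11. Adult livers of 15 weeks thus had means above those of 78 weeks in both sexes, and the lowest adult means were at 6 weeks. Within scans the old minus adult difference was between 0.15 and 0.37 in males, and in females it was 0.77, 0.24 and 0.37 in scans 2 to 4 and -0.20 in scan 5. The male result missed the threshold without any 1 of 8 arrays, where it was 0.23 to 0.25 (permutation adjusted p between 0.0505 and 0.0723). These were 104-week males 3, 4 and 5, 52-week males 1 and 6, 78-week male 4, 15-week male 2 and 8-week male 1. None of the 9 sex differences, 1 at each age, passed after adjustment. The largest difference was 0.36 at 6 weeks with males higher (exact two-sided permutation test, p = 0.0317, adjusted p = 0.0825), and it passed without 6-week male replicate 1 (0.44, exact permutation adjusted p = 0.0413). At the other ages the difference lay between -0.20 and 0.11.

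Other miRNAs of the Hox clusters were rarely or never detected on these arrays. The opposite strands of both hairpins, miR-10a-3p and miR-10b*, were detected on 0 of 88 arrays. The same was true of miR-196a, miR-196b and their star strands, of miR-196c* and of miR-615, which also come from Hox clusters. miR-196c, whose gene lies on chromosome 10 between Hoxb13 and Hoxb9, was detected on 6 arrays. Its normalized intensity was 0.280 in a 5-week female, 0.182 and 0.0435 in 2 females of 15 weeks, 0.568 in a 21-week female, 0.0827 in a 52-week female and 0.0299 in a 104-week male. Each of these groups also held livers in which it was not detected.

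The relatives outside the Hox clusters were miR-99a, miR-99b and miR-100, detected on 88, 80 and 88 arrays. Between young and adult males, miR-99a and miR-100 rose by 1.16 and 0.99 (limma adjusted p = 3.64e-06 and 6.23e-06), and in females none of the 3 was called. Over all expressed miRNAs 29.9% were called higher in adult males. The 103 miRNAs detected on all arrays rose there by a median of 0.99, so the rise of miR-100 did not exceed it. miR-99a also differed by sex at 15, 21, 52, 78 and 104 weeks, with males higher by 0.66 to 1.04, and miR-100 did at 21, 52 and 104 weeks, with males higher by 0.73 to 0.86. Of such comparisons over all expressed miRNAs 4.5% were called, and neither miR-10 member was called at these ages.

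Among the 102 other miRNAs detected on all arrays, those whose 18 group means followed miR-10a-5p most closely were miR-195 (Pearson r = 0.98), miR-497 (r = 0.97), miR-192 (r = 0.97), let-7a (r = 0.96) and miR-30a (r = 0.96). The least like were miR-335 (r = -0.89) and miR-322 (r = -0.74). For miR-10b the closest were miR-150 (r = 0.89), miR-378 (r = 0.88), miR-24 (r = 0.87), miR-122 (r = 0.86) and miR-30d (r = 0.85), and the least like were miR-335 (r = -0.66) and miR-322 (r = -0.56). These are descriptions, since all values of an array share its scaling and the 2-week groups stand apart from the rest. The median r over the 102 was 0.76 for miR-10a-5p and 0.66 for miR-10b. With the scaling to the miRNAs detected on all arrays, miR-195 and miR-497 had r = 0.85 and 0.81 with miR-10a-5p, whereas let-7a had r = -0.18. The group means of the 2 members correlated at r = 0.83, at r = 0.46 over the 16 groups after 2 weeks, and at r = 0.13 with the other scaling. With that scaling miR-150 and miR-378 had r = 0.63 and 0.43 with miR-10b, whereas miR-24, miR-122 and miR-30d had r = 0.082, 0.29 and 0.26. There miR-335 and miR-322 had r = -0.11 and -0.15 with miR-10b, and r = -0.81 and -0.75 with miR-10a-5p.

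Markers of liver cell types were given by lists of miRNAs. All 3 hepatocyte markers were detected on 88 of 88 arrays, as the labelled tissue requires, and 3 of 3 rose from young to adult liver in each sex. Their summed normalized intensity was 398.7 to 428.9 in young males, 560.4 to 674.5 in young females and 633.8 to 1387.7 in all later classes, so that young males lay below all other livers. All 4 measured leukocyte markers rose in males and 3 of 4 in females, and both erythroid markers rose in each sex. Of the 5 stellate and smooth muscle markers 1 rose in males and 0 in females, of the 2 endothelial markers 1 and 0, and of the 5 biliary markers 2 fell in females and 0 changed in males. Of the 5 skeletal muscle markers 1 rose in females and 0 in males, and their sum was between 0 and 65.6 among adult males, so that single liver pieces differed widely. Over all expressed miRNAs 22.9% in females and 29.9% in males were called higher in adults, and the 103 miRNAs detected on all arrays rose by medians of 0.52 and 0.99 with this scaling. The part of these cell types in the members' levels was not tested.

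Over the 78 livers after 2 weeks, the 2 members moved together (Pearson r = 0.55, Spearman rho = 0.58, permutation adjusted p = 7.5e-05 for each over 15 relations). With group means removed r was 0.67, with the scaling to the 103 miRNAs it was 0.29, and without the 2 arrays farthest from the median it was 0.53. Within scans 2 to 5 it was 0.20, 0.54, 0.64 and 0.54. miR-10a-5p followed the hepatocyte markers (r = 0.74, rho = 0.74, permutation adjusted p = 7.5e-05), within scans at 0.93, 0.76, 0.75 and 0.75, but with the scaling to the 103 miRNAs r was 0.18 (permutation adjusted p = 0.176). All values of an array, those of both members and of the markers, share its scaling. The members share 20 of 21 aligned bases, and the part of shared probe signal in their correlation was not tested. The negative relation of miR-10a-5p to the biliary markers (r = -0.35, rho = -0.42, permutation adjusted p = 0.00679 and 6.5e-04) was 0.05 with group means removed. Its relation to the erythroid markers was r = -0.27 (permutation adjusted p = 0.0316), rho = -0.21 (permutation adjusted p = 0.101), and r = -0.40 with the other scaling.

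Of the skeletal muscle markers, miR-1 was detected on 28 of 88 arrays, miR-133a on 8, miR-133b on 35, miR-206 on 23 and miR-499 on 53, so that most of their values were at the floor. With that limit, the largest r of miR-10b with a marker list was that with the skeletal muscle list (r = 0.41, rho = 0.35, permutation adjusted p = 8.5e-04 and 0.00716). It was r = 0.46 with group means removed, r = 0.56 with the other scaling and r = 0.37 without the 2 farthest arrays. Within scans it was 0.40, 0.62, 0.16 and 0.15, and passed in scan 3 alone (permutation adjusted p = 0.0034). The relation to the stellate and smooth muscle list was r = 0.29 (rho = 0.28, permutation adjusted p = 0.0233 and 0.0352), but r = 0.21 without the 2 farthest arrays, where it did not pass (permutation adjusted p = 0.11). Within scans it was between 0.16 and 0.48. The relation to the hepatocyte list, r = 0.30 (rho = 0.30, permutation adjusted p = 0.0218 and 0.0233), was -0.23 with the other scaling and 0.24 without the 2 farthest arrays. The remaining 8 relations did not pass by Pearson's r, which lay between -0.23 and 0.23, although 4 of them passed under 1 alternative each. miR-10b with the biliary list had r = 0.33 (permutation adjusted p = 0.0136) and miR-10a-5p with the endothelial list r = -0.29 (permutation adjusted p = 0.0249) with the other scaling. miR-10a-5p with the stellate and smooth muscle list had r = 0.29 (permutation adjusted p = 0.0264) with group means removed. Its relation to the leukocyte list was r = 0.31 (permutation adjusted p = 0.0194) without the 2 farthest arrays and r = -0.25 with group means removed, so that its direction was not fixed.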

How the data were processed

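Per the file headers, the authors read the arrays with Feature Extraction 10.7.3.1 and deposited, for each array, linear background-subtracted intensity values of spots and miRNAs, in which a total gene signal of 0.1 stands for not detected. They also deposited 1 table of ratio values, each signal over the array's 75th percentile. Rebuilding it gave the same value within 0.01% for all but 1 of 15763 detected signals. Detected signals were divided by the 75th percentile of the 314 expressed miRNAs, undetected ones were set to the floor of 0.0120, and values were log2-transformed. Arrays carry no read depth; their number limits precision, and the 75th percentile ranged from 28.1 to 289. The files used here gave no mean spot signal, so normexp (offset 50) used the median signal.

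Groups were compared with limma 3.58.1 (lmFit, eBayes) in R 4.3.3 with Benjamini-Hochberg adjustment over the 314 miRNAs, within each sex for age and over all 88 arrays for sex. In a simulation of adult against young males with 60 of 314 miRNAs changed, 48 were recovered with 1 false call. The largest error of an estimated log2 change was 2.055. Its noise was independent and normal, with no undetected values set to the floor and no shift of whole 2-week arrays. It checks the code and cannot test the calls made here. Permutation tests and correlations used Python 3.11.15 with scipy 1.17.1. Scans were parted at gaps of over 8 hours, giving 5 scans of 1, 13, 30, 28 and 16 arrays on 13 slides; the first, with 1 array, gave no within-scan value. The labels call the animals independent and say that they shared cages, without naming cage mates. Replicate numbers were not taken to pair animals. Deviations from group means had a mean r of 0.053 for the same number and -0.0076 for other numbers. They correlated above 0.1 in 17 of 33 pairs of one age. These values do not settle whether animals were paired, so a replicate block was run as an alternative.

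The members and lists were chosen with earlier results of these data known. Named genes were the members, other strands and Hox-cluster miRNAs, miR-99a, miR-99b and miR-100, and for each member the 5 most and 2 least like miRNAs. Marker lists were hepatocyte (miR-122, miR-192, miR-194), stellate and smooth muscle (miR-143, miR-145, miR-199a-5p, miR-199a-3p, miR-214), endothelium (miR-126, miR-126*), leukocyte (miR-142-3p, miR-142-5p, miR-150, miR-223; miR-155 was not measured), erythroid (miR-144, miR-451), biliary (miR-200a, miR-200b, miR-200c, miR-141, miR-429) and skeletal muscle (miR-1, miR-133a, miR-133b, miR-206, miR-499). Alternatives covered scaling, background, floor, filter, single probes, the deposited table, scan, slide, replicate block, 17 arrays with a later design file, the methods' t-test and each array left out.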

Additional observations from a re-analysis of the deposited data

Results flagged for a closer look

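Of 54 groups examined, 6 held an array far from its group, where chance gives about 1 in 20 for a single group. The 54 are the age and sex groups taken for each member and again for their difference. They are not independent, so whether 6 exceeds chance cannot be judged. For miR-10a-5p these were 78-week female replicate 4, with a log2 level of 1.85 against 2.40 to 2.59 in the rest of its group, and 15-week male replicate 6, with 2.09 against 2.44 to 2.56. For miR-10b, 2-week male replicate 3 was not detected and stood at the floor of -6.38 on the log2 scale, and 6-week male replicate 5 had -2.93 against values up to -1.69 in the rest of its group. The difference of the members was 3.97 in 15-week female replicate 4 against 4.41 to 4.50, and 3.65 in 15-week male replicate 2 against 4.21 to 4.31. The change from young to adult differed between the sexes by 0.63 for miR-10a-5p (limma adjusted p = 0.0128) and by 1.29 for miR-10b (limma adjusted p = 0.00218), both larger in males. Neither held under all alternatives. For miR-10a-5p it was 0.16 (limma adjusted p = 0.373) with the scaling to the 103 miRNAs detected on all arrays, 1.05 (limma adjusted p = 0.125) with the percentile over all miRNAs and 0.55 without the later-design arrays, and none of these passed. For miR-10b it was 0.61 (limma adjusted p = 0.0819) with the undetected array left out, 1.17 (limma adjusted p = 0.0664) with the first probe alone and 0.068 (limma adjusted p = 0.465) with normexp and quantile normalization.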

How the results depend on the processing

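Of 520 values recomputed for the main comparisons under alternatives, 460 kept their direction and their side of the threshold. Of the counts of calls and the correlations recomputed likewise, 136 did, while 44 counts moved by over 1.5 times, 21 correlations no longer passed and 7 were reversed. Some of the kept values could hardly change, so these totals do not measure robustness. The deposited table held nearly the same values, and leaving out the undetected miR-10b value does not touch the miR-10a-5p estimates. Results that passed in neither setting also count as kept. The causes of the changes below were not tested. With the 75th percentile over miRNAs detected on all arrays, miR-10a-5p gave 0.12 and 0.29 for adult minus young in females and males, -0.20 for the sex difference at 2 weeks, and 0.16 and 0.12 for its change from young to adult and adult to old, while miR-10b gave -0.25 and 0.64, an adjusted p of 0.788 over 9 male ages, and 0.17 for adult to old. With the undetected value left out too, miR-10b in males gave 0.694 over 9 ages and -0.12 for adult minus young, its sex difference -0.19 and its young to adult change 0.13, and the miR-10a-5p values stood as above. With that percentile over all miRNAs, the later-age adjusted p for miR-10a-5p was 0.777 in females and 0.126 in males and for miR-10b 0.557 in females, the miR-10a-5p sex difference was -0.56 and its change 1.05, miR-10b in females gave 1.17 for adult minus young, now called, and 0.014 for old minus adult, and 1 later age was called between the sexes for each. Quantile normalization gave 0.19 for miR-10a-5p in females, 0.333 for its later male ages, and 0.92 (called), 0.033 and a later-age adjusted p of 0.142 for miR-10b in females. Normexp with quantile gave 0.25 and -0.36 for miR-10a-5p in females and between the sexes, and for miR-10b 0.127 over later female ages, 0.13 and 0.0013 for male adult minus young and old minus adult, -0.079 between the sexes, and 0.068 and 0.0041 for the changes. The first probe alone gave -0.50 for the miR-10a-5p sex difference, and for miR-10b 0.330 and 0.350 over all and later female ages, 0.028 for female old minus adult, -0.93 between the sexes and 1.17 for young to adult. Without the later-design arrays the miR-10a-5p values were -0.50 and 0.55, and the miR-10b adult to old change was 0.072. That change was 3.45e-05 with scan as a block. The slide block gave -0.57 for the miR-10a-5p sex difference, the methods' t-test did not pass for miR-10b (-1.29, adjusted p = 0.221), and leaving out the undetected value gave 0.61. With the replicate block, adult minus young was 0.76 and 1.38 for miR-10a-5p and 0.37 and 1.69 for miR-10b in females and males, and 3 later female pairs of miR-10b were called in place of 1; ages called above 2 weeks for miR-10b in females were 2 in place of 3, and the remaining members' tests kept their calls. The members' difference at 2 weeks in males was -0.32 with the undetected value at its array's minimum, and old minus adult in males 0.25 without the array lacking miR-10b spots above background. The difference of the members between the sexes at 104 weeks was 0.078 with processed signals. Correlations with the biliary list for miR-10a-5p were 0.047 with group means removed and 0.24 with the other scaling too, and with hepatocytes -0.064 for miR-10a-5p under both; miR-10b with hepatocytes gave -0.23, -0.21 under both and -0.057 in scan 2; miR-10a-5p with erythroid markers gave 0.17 in scan 2; and the members gave 0.20 and 0.54 in scans 2 and 5. Without 1 array at a time, the miR-10a-5p sex difference at 2 weeks ranged from -0.63 to -0.53, the miR-10b changes from 0.61 to 1.58 and from -0.094 to 0.027, and the members' difference from -0.54 to -0.42 in females and -0.60 to -0.38 in males at 2 weeks and from 0.23 to 0.32 in old males. Between the sexes it ranged from -0.10 to 0.11 at 2 weeks, -0.016 to 0.27 at 5, 0.26 to 0.44 at 6, -0.19 to 0.0057 at 8, -0.11 to 0.046 at 21, -0.088 to 0.20 at 78 and -0.069 to 0.021 at 104 weeks. miR-10b lay close to background, which limits its values.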
